A study of Mus musculus with 30 samples.

Results

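The Nrf2 oxidative stress targets described here are a given list of 10 genes, namely *Hmox1*, *Nqo1*, *Gclm*, *Gclc*, *Srxn1*, *Txnrd1*, *Slc7a11*, *Gsr*, *Nfe2l2* and *Osgin1*. All 10 are present among the 26179 genes of the *RiboTag* tables and the 24601 genes of the *ME* table. Nrf2, encoded by *Nfe2l2*, is a transcription factor that cells keep at low protein levels through *Keap1*, an adaptor that hands Nrf2 to a Cullin 3 ubiquitin ligase. Oxidants and electrophiles modify cysteines of *Keap1*, Nrf2 then accumulates, pairs with a small Maf protein (*Maff*, *Mafg* or *Mafk*) and binds antioxidant response elements, which *Bach1* can occupy as a repressor. Its targets detoxify heme, supply glutathione and keep thioredoxin and peroxiredoxins reduced. Enteric glia are the neural crest-derived support cells of the gut's own nervous system, and in the small bowel they lie in the muscularis externa (*ME*), the muscle coat that also holds smooth muscle, neurons, resident macrophages and interstitial cells of Cajal.

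The study followed mice through post-operative ileus, a gut paralysis that follows surgical handling of the bowel, here produced by intestinal manipulation (IM). In *RiboTag* libraries the mRNA was pulled down on HA-tagged ribosomes (Rpl22-HA) of Sox10-expressing cells, which in this layer are glia, in male mice whose *Sox10*-icre/ERT2 driver was switched on by tamoxifen. In *ME* libraries total RNA of the same layer was sequenced. *RiboTag* libraries numbered 3 for naïve mice and 4 each for the times of 3 h (IM3h), 24 h (IM24h) and 72 h (IM72h) after surgery, and *ME* libraries numbered 3, 3, 4 and 4. All *RiboTag* mice and the *ME* mice at IM24h and IM72h are labelled as the *Sox10*-icre/ERT2 x Rpl22 line, whereas naïve and IM3h *ME* mice are labelled as a Gfap-cre x Rpl22 line, so that line and time cannot be told apart where *ME* at IM24h or IM72h is set against naïve or IM3h *ME*. Naïve mice had no operation, so the laparotomy itself is part of every IM group. The study describes the samples of each time as separate animals, but library names in the count tables match no single sample label, so p-values measure the spread between libraries of a group.

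Depth differed between the fractions and fell in effect with time in *RiboTag*. Libraries held 3010306 to 7899493 estimated counts in *RiboTag* and 6603170 to 12866062 in *ME*. A single transcript, AY036118, took 2.68 to 14.0% of the counts of naïve *RiboTag* libraries, 2.02 to 10.3% at IM3h, 22.2 to 59.2% at IM24h and 58.0 to 80.1% at IM72h, which left 663808 to 1619377 counts for all other genes at IM72h. In *ME* its share was 16.1 to 33.5% in naïve libraries, 24.1 to 25.1% at IM3h and 1.33 to 6.50% at the later times. Levels are given as CPM, counts per 1000000 of the library total after TMM scaling within a fraction. A count of 0 allows up to 3 counts in that library, worth 0.232 to 0.349 CPM in *RiboTag* at IM3h but 1.32 to 2.88 CPM at IM72h, counting error only. The 4 glial markers reported (*Sox10*, *S100b*, *Erbb3* and *Foxd3*) summed to 1202 to 1567 CPM in naïve *RiboTag* and 69.5 to 78.7 CPM in naïve *ME*, and 4 of 4 were higher in *RiboTag*. Smooth muscle markers still summed to 3738 to 5670 CPM in naïve *RiboTag*, against 19223 to 20090 CPM in naïve *ME*, so *RiboTag* libraries were enriched for glial mRNA and not free of mRNA of other cells. In such bulk samples, fewer cells of a type and less RNA per cell cannot be told apart.

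Stretches around start sites of the members were searched for the letters that Nrf2 and AP-1 factors read. RefSeq windows of 250 bases before to 50 after a start site were at hand for 7 members, 9 windows in all (GRCm38.p6). *Hmox1*, *Gclc* and *Gsr* had no window and were not searched. Bases outside the windows were not searched either, so a window without a match does not show that a gene lacks an element. The antioxidant response element core TGACNNNGC was searched on both strands and stood in a window of 4 members, *Srxn1*, *Txnrd1*, *Gclm* and *Nfe2l2*, against 14.0% of all 27025 genes with a window and 12.4% of all 32851 windows. The AP-1 letters TGANTCA, which read the same on both strands and do not overlap the core in these windows, stood in the windows of *Srxn1* and *Osgin1*, against 8.97% of these genes and 7.81% of all windows. A match describes letters and is not a measured site. The 250 bases upstream of the start are printed for the 4 members with a core, 5′ to 3′ along the gene, with each match of either motif in capitals.
*Srxn1* (chr2:152105274-152105523, plus strand): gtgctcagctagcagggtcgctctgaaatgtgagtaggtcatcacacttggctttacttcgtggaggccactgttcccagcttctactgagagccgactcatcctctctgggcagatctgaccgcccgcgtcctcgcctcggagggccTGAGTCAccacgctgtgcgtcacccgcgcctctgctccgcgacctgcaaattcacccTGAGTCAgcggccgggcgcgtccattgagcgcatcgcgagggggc
*Txnrd1* (chr10:82858956-82859205, plus strand, the second of 3 start sites): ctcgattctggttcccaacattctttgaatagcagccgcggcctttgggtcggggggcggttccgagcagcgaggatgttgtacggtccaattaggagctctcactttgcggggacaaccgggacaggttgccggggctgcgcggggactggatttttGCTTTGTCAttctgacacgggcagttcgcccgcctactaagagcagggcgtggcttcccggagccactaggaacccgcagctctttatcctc
*Gclm* (chr3:122245307-122245556, plus strand): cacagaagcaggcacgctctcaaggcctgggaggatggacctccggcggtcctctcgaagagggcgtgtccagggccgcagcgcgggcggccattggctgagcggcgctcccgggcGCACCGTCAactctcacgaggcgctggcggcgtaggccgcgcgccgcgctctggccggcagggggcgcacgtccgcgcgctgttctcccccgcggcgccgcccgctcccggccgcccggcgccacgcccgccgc
*Nfe2l2* (chr2:75704664-75704913, minus strand): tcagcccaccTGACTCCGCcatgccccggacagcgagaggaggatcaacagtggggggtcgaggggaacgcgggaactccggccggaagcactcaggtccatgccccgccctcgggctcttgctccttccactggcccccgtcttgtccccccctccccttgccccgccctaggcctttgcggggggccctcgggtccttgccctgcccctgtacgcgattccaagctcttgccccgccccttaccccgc
In *Srxn1* the capitals are AP-1 letters, at -102 to -96 and at -45 to -39 from the start site, and its core lies just past the printed stretch, at +28 to +36 on the opposite strand. In *Txnrd1* the capitals are the core read on the opposite strand, at -92 to -84. *Gclm* has its core at -134 to -126, also on the opposite strand, and *Nfe2l2* has its own at -240 to -232.

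At IM3h, *RiboTag* mRNA of 5 members rose and that of none fell. They were *Srxn1*, *Hmox1*, *Txnrd1*, *Gclc* and *Nfe2l2*, with rises of 36.5-fold, 23.3-fold, 7.94-fold, 4.67-fold and 2.63-fold over naïve mice in the edgeR fit. Of the 16053 genes tested, 8.86% were called higher and 4.44% lower at an adjusted p under 0.05, and 9 members were tested. For 6 of these 9 all IM3h libraries lay above all naïve libraries, against 15.3% of all genes. The median log2 fold change of the tested members was 1.39, and that of all genes was -0.04.

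*Srxn1* (chr2:152105516-152111376, plus strand, mm10) encodes sulfiredoxin, which repairs over-oxidised peroxiredoxins. Its *RiboTag* level was 18.3, 23.3 and 23.7 CPM in naïve mice and 1008, 942, 706 and 398 CPM at IM3h. The groups lay far apart, although the IM3h libraries themselves spanned more than a doubling (log2 fold change 5.19, SE 0.39, adjusted p = 1.85e-05). *Hmox1* (chr8:75093621-75100589, plus strand) encodes heme oxygenase 1, which splits heme into biliverdin, iron and carbon monoxide. It stood at 2.41, 3.39 and 2.49 CPM in naïve mice and at 70.2, 76.3, 61.3 and 41.3 CPM at IM3h. Every operated library was above every naïve library (4.54, SE 0.36, adjusted p = 2.57e-05).

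*Txnrd1* (chr10:82833951-82897712, plus strand) encodes the cytosolic thioredoxin reductase, which hands electrons from NADPH to thioredoxin. Its level was 14.9, 24.5 and 25.0 CPM in naïve *RiboTag* and 148, 152, 186 and 168 CPM at IM3h, a close-set group well above the naïve one (2.99, SE 0.28, adjusted p = 6.19e-05). *Eid3* lies on the same strand within the *Txnrd1* locus, so reads of the genes may not be told apart. *Gclc* (chr9:77754535-77794485, plus strand), the catalytic subunit of the enzyme that starts glutathione synthesis, stood at 31.1, 34.7 and 26.0 CPM in naïve *RiboTag* and at 172, 177, 133 and 67.8 CPM at IM3h. The groups were separate, although library 4 lay well below the other operated libraries (2.22, SE 0.34, adjusted p = 0.00150). *Nfe2l2* itself (chr2:75675513-75704641, minus strand) went from 42.9, 25.1 and 33.1 CPM to 62.1, 60.4, 79.7 and 139 CPM (1.39, SE 0.35, adjusted p = 0.0202).

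The other members did not pass in *RiboTag* at IM3h. *Gclm* (chr3:122245557-122270732, plus strand) encodes the modifier subunit that partners *Gclc*, and its naïve levels of 19.4, 8.92 and 17.8 CPM overlapped the IM3h levels of 17.6, 20.2, 10.5 and 16.5 CPM. Its log2 fold change was 0.13 (SE 0.40), beside 2.22 for *Gclc*. *Gsr* (chr8:33652523-33698163, plus strand), the glutathione reductase, stood at 7.37, 7.34 and 3.08 CPM in naïve mice and at 13.6, 9.46, 15.4 and 12.1 CPM at IM3h. These groups did not overlap, but the adjusted p was 0.150 (1.15, SE 0.48). *Nqo1* (chr8:107388225-107403206, minus strand), a quinone reductase, and *Slc7a11* (chr3:49892526-50443614, minus strand), the cystine carrier of system xc-, reached 6.28 and 2.58 CPM at most in naïve and IM3h *RiboTag* libraries (log2 fold changes 1.01, SE 1.26, and 0.09, SE 1.45). *Osgin1* (chr8:119434124-119446256, plus strand), an oxidative stress induced growth inhibitor, had too few reads to be tested and reached 4.74 CPM at most.

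The *RiboTag* calls at IM3h depended on which libraries shared the fit. In a fit over all 4 *RiboTag* groups none of the 5 passed, with log2 fold changes close to those above and wider errors. *Srxn1* was at 5.13 (SE 1.34, adjusted p = 0.190) and *Hmox1* at 4.48 (SE 1.48, adjusted p = 0.485). Of the 5, 4 passed in a fit that left out the IM72h libraries, chosen after seeing the data. *Nfe2l2*, the gene lost in the latter, also missed the threshold without naïve library 2 (adjusted p = 0.0854) or 3 (0.0793). *Nfe2l2* and *Gclc* were no longer called when libraries were scaled by *Actb*, *Hsp90ab1* and *Rplp1*. Macrophage markers summed to 68.8 to 139 CPM in naïve *RiboTag* and 47.1 to 107 CPM at IM3h, and neutrophil markers to 1.07 to 5.65 and 3.48 to 13.3 CPM. The glial marker sum was 736 to 2069 CPM at IM3h, with 2 of 4 markers lower. Markers of some other cells of the layer were also lower at IM3h, with smooth muscle at 1562 to 3645 CPM (2 of 4 markers lower), fibroblasts at 143 to 204 CPM after 381 to 470 CPM (2 of 3), mesothelium at 8.88 to 65.5 CPM after 66.6 to 180 CPM (2 of 3) and interstitial cells of Cajal at 23.8 to 47.7 CPM after 87.3 to 122 CPM (1 of 2). Neuronal markers, at 493 to 1110 CPM after 359 to 764 CPM, and endothelial markers, at 12.4 to 31.3 CPM after 15.5 to 31.8 CPM, overlapped, and none was called by edgeR (1 and 0 at an unadjusted p under 0.05). The part of these shifts in the results was not tested.

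**Figure D1:**
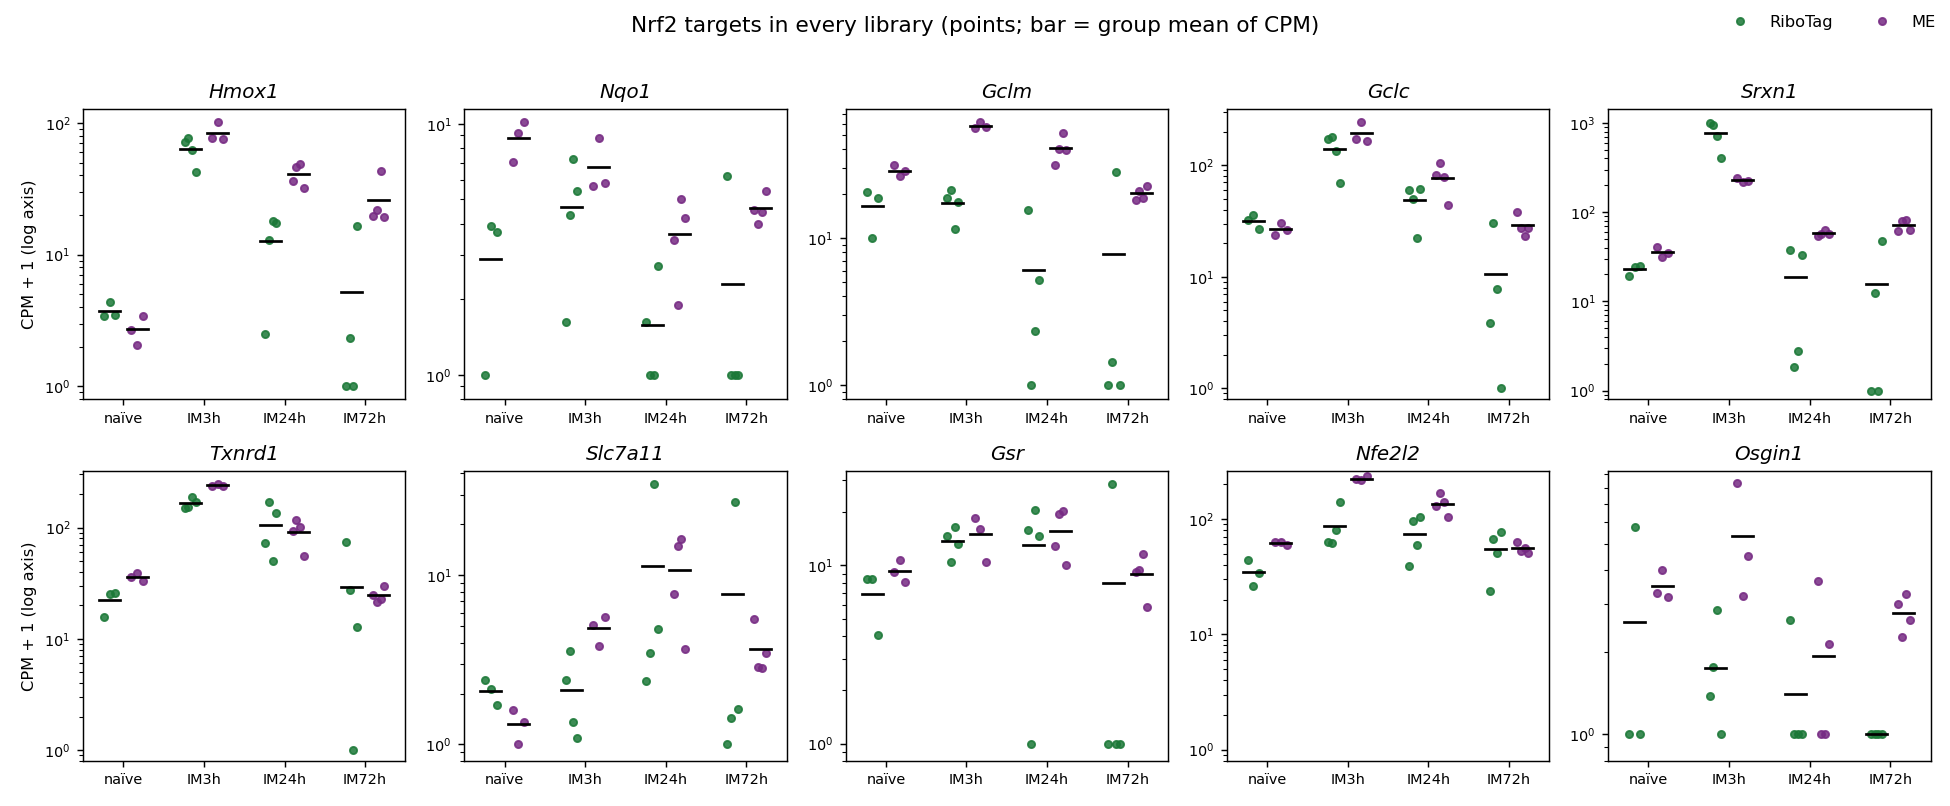
Levels of the 10 members in every library, as CPM plus 1 on a log axis against naïve and the 3 times after IM; green points are *RiboTag* libraries, purple points *ME* libraries and black bars the group means of CPM. *Srxn1* reaches 398 to 1008 CPM in *RiboTag* at IM3h and 218 to 238 CPM in *ME*, while *RiboTag* points scatter down to 0 at IM24h and IM72h.

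In total *ME* RNA at IM3h, 8 of the 10 members rose and none fell. *Hmox1* rose 46.8-fold, *Slc7a11* 10.5-fold, *Gclc* 7.74-fold, *Txnrd1* 7.07-fold, *Srxn1* 6.78-fold, *Nfe2l2* 3.79-fold, *Gclm* 2.13-fold and *Gsr* 1.77-fold. Of 15333 genes tested, 19.3% were called higher and 13.4% lower. All operated libraries lay above all naïve ones for 7 members, against 25.3% of all genes, and the members' median log2 fold change was 2.34, beside 0.00 for all genes. Both groups here are of the Gfap-cre line, so this comparison is within a line.

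*Hmox1* stood at 1.69, 1.08 and 2.42 CPM in naïve *ME* and at 75.1, 99.9 and 74.0 CPM at IM3h, with no overlap (5.55, SE 0.24, adjusted p = 3.93e-07). *Srxn1* was at 39.2, 30.4 and 34.1 CPM in naïve *ME* and at 238, 218 and 225 CPM at IM3h, a close-set group (2.76, SE 0.12, adjusted p = 4.19e-07). *Txnrd1* likewise ran from 34.7, 38.3 and 31.8 CPM to 235, 245 and 235 CPM (2.82, SE 0.12). Replicates of these enzymes differed little beside the change.

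On the glutathione side, *Gclc* was at 22.8, 29.3 and 25.2 CPM in naïve *ME* and at 171, 241 and 164 CPM at IM3h (2.95, SE 0.18), and *Gclm* at 30.5, 25.2 and 27.4 CPM and then 55.0, 60.2 and 55.9 CPM (1.09, SE 0.12, adjusted p = 0.000113). Both subunits of the glutamate-cysteine ligase were thus higher in every operated library. A pseudogene, *Gm6061*, lies on the same strand within *Gclm*, so part of the *Gclm* count could belong to it. *Slc7a11* was barely detected in naïve *ME*, at 0.604, 0 and 0.363 CPM, and stood at 4.09, 2.80 and 4.65 CPM at IM3h (3.39, SE 0.64, adjusted p = 0.00273). *Gsr* ran from 8.22, 9.69 and 7.02 CPM to 17.5, 15.1 and 9.48 CPM, groups that overlapped (0.82, SE 0.27, adjusted p = 0.0401), and its call was lost in 7 of 13 alternative settings, among them without naïve library 1 or 3 or IM3h library 1 or 2 (adjusted p = 0.121 to 0.162).

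*Nfe2l2* was at 62.4, 61.6 and 58.4 CPM in naïve *ME* and at 221, 215 and 232 CPM at IM3h (1.92, SE 0.10). *Nqo1*, often used as a marker of Nrf2 activity, did not pass, with 6.04, 8.18 and 9.20 CPM in naïve *ME* and 4.65, 7.82 and 4.82 CPM at IM3h (-0.39, SE 0.31, adjusted p = 0.360). *Osgin1* did not pass either, with 2.30, 3.01 and 2.18 CPM and then 7.33, 2.21 and 3.49 CPM (0.88, SE 0.49, adjusted p = 0.196). Macrophage markers summed to 119 to 130 CPM in naïve *ME* and 83.6 CPM at the lowest at IM3h, with every IM3h library below the naïve ones but 1 of 5 markers called higher and 2 lower, and neutrophil markers to 3.75 to 6.78 and 19.6 to 30.3 CPM. Smooth muscle markers, at 14423 to 16879 CPM (1 of 4 lower), lay below naïve and endothelial markers, at 34.8 to 44.1 CPM after 25.8 to 26.8 CPM (1 of 3 higher), above. Fibroblast markers went from 1438 to 1540 CPM to 712 to 787 CPM (3 of 3 lower), mesothelial markers from 96.2 to 117 CPM to 13.6 to 57.6 CPM (2 of 3) and markers of interstitial cells of Cajal from 212 to 223 CPM to 152 to 157 CPM (2 of 2), and their part in the results was not tested.

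**Figure D2:**
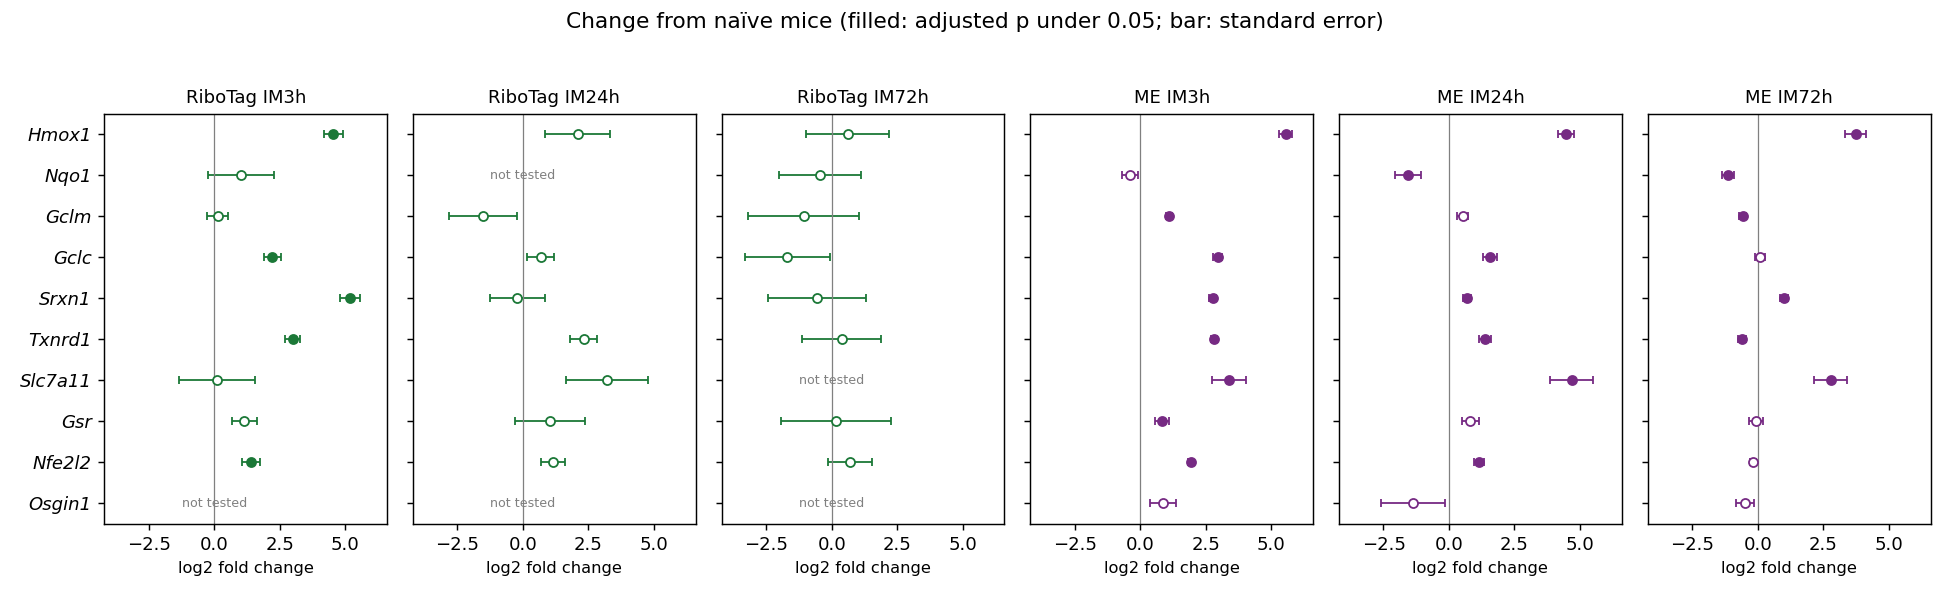
Log2 fold change of each member from naïve mice (x axis) in the 6 comparisons, with bars for the standard error, green for *RiboTag* and purple for *ME*, and filled points for an adjusted p under 0.05. Filled points number 5, 0 and 0 in *RiboTag* at IM3h, IM24h and IM72h and 8, 7 and 6 in *ME*, where the falls of *Gclm* and *Txnrd1* at IM72h turn to 0.029 and 0.023 when libraries are scaled by their totals alone.

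*Srxn1* was the member whose rise at IM3h differed between the fractions. Its rise in *RiboTag* was 5.70-fold larger than in *ME* (difference of log2 fold changes 2.51, SE 0.37, adjusted p = 0.00326, test of the fraction by treatment term). It was the only one of the 10 members past the threshold, where 0.952% of 17646 genes had a larger and 0.703% a smaller change in *RiboTag*. *Hmox1* (-0.93, SE 0.42, adjusted p = 0.316), *Gclm* (-0.87, SE 0.41, adjusted p = 0.348) and *Slc7a11* (-3.30, SE 1.61, adjusted p = 0.363) had point estimates on the *ME* side and did not pass. When libraries were scaled by *Actb*, *Hsp90ab1* and *Rplp1* the *Srxn1* difference was as large, but with a wider error it was no longer called (2.53, SE 0.66, adjusted p = 0.176). *RiboTag* and *ME* mice of these groups are of different Cre lines, so line and fraction cannot be told apart.

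Before surgery the fractions did not differ past the threshold in any of the 9 members tested by edgeR, where 13.4% of 14769 genes were called higher and 12.7% lower in *RiboTag*. *Gclc* came nearest (0.61, SE 0.21, adjusted p = 0.0665) and was the only one at an unadjusted p under 0.05, and *Slc7a11* was not tested. *Nqo1* was at 0, 2.94 and 2.73 CPM in naïve *RiboTag* and 6.04 to 9.20 CPM in naïve *ME* (adjusted p = 0.235). Without naïve *RiboTag* library 1 *Nfe2l2* was called lower in *RiboTag* (adjusted p = 0.0192), and without library 2 *Osgin1* was (0.0143).

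At IM24h in *ME*, 6 members were above naïve levels and 1 was below. *Hmox1*, *Slc7a11*, *Gclc*, *Txnrd1*, *Nfe2l2* and *Srxn1* were higher than in naïve mice, *Nqo1* was lower, and *Gclm*, *Gsr* and *Osgin1* did not pass. Of 16328 genes tested, 15.6% were called higher and 13.4% lower, and non-overlap was found for 20.2% above and 20.7% below. *Slc7a11* was at 6.78, 13.9, 15.4 and 2.64 CPM (4.68, SE 0.84, 25.7-fold) and *Hmox1* at 35.2, 45.4, 48.0 and 31.1 CPM (4.46, SE 0.31, 21.9-fold). Each operated library of these genes lay above every naïve library. *Gclc* stood at 80.9, 104, 77.2 and 42.9 CPM (1.57, SE 0.27), *Txnrd1* at 93.0, 115, 99.8 and 54.2 CPM (1.37, SE 0.24) and *Nfe2l2* at 128, 168, 138 and 104 CPM (1.14, SE 0.18). The same library, number 4, was the lowest for *Hmox1*, *Slc7a11*, *Gclc*, *Txnrd1* and *Nfe2l2*.

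*Srxn1* had come down to 53.1, 56.3, 61.6 and 55.2 CPM in *ME* at IM24h (0.70, SE 0.16, adjusted p = 0.00753). *Nqo1* was at 2.45, 0.901, 4.01 and 3.22 CPM, all below the naïve libraries (-1.56, SE 0.49, adjusted p = 0.0372), a call lost in 6 of 14 alternative settings, among them without any 1 naïve library or without IM24h library 1 (adjusted p = 0.0713 to 0.145). *Gclm* passed without IM24h library 1 (adjusted p = 0.0349) and *Gsr* without library 4 (0.0179). With the 3-gene scaling, as by *Actb*, *Hsp90ab1* and *Rplp1* above, 4 members were called higher and 0 lower, and with library totals alone 8 higher and 0 lower. At this time macrophage markers summed to 274 to 378 CPM, neutrophil markers to 52.7 to 204 CPM and smooth muscle markers to 2628 to 9517 CPM. Endothelial markers summed to 40.4 to 57.4 CPM after 25.8 to 26.8 CPM in naïve *ME*. Neuronal markers stood at 227 to 375 CPM after 419 to 438 CPM, and mesothelial markers at 5.30 to 71.4 CPM after 96.2 to 117 CPM. All these sums lay apart from the naïve ones, and their part in these results was not tested.

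From IM3h to IM24h, 7 members fell in *ME*, where 17.7% of 17919 genes were called higher and 18.7% lower. *Srxn1* fell to 0.249 times its IM3h level (SE 0.14 on the log2 scale). *Txnrd1* fell by 1.40 on the log2 scale (SE 0.19), *Gclc* by 1.33 (SE 0.24), *Nqo1* by 1.12 (SE 0.41), *Hmox1* by 1.05 (SE 0.26), *Nfe2l2* by 0.73 (SE 0.14) and *Gclm* by 0.52 (SE 0.16), of which *Gclm* and *Nfe2l2* turned to 0.32 and 0.11 when libraries were scaled by their totals alone. That scaling moved the median of all genes by 0.84, left *Srxn1* and *Txnrd1* as the 2 falls and called 2 members higher, *Slc7a11* (2.18, adjusted p = 0.00435) and *Gsr* (0.89, adjusted p = 0.0255). *Slc7a11* took the other direction (1.33, SE 0.56) without passing (adjusted p = 0.0756), and passed without IM24h library 4 (0.0134). *Nqo1* was lost without any 1 IM3h library or without IM24h library 1 or 2 (adjusted p = 0.0517 to 0.193), and *Gclm* without IM3h library 2 (0.0688), while *Osgin1* passed without IM24h library 1 (0.00818).

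In *RiboTag* at IM24h no member passed in edgeR, where 0.366% of 15304 genes were called higher and 0.131% lower, although 2 of the 8 tested had an unadjusted p under 0.05 and DESeq2 called *Txnrd1*. *Txnrd1* was at 71.0, 168, 48.8 and 133 CPM, all above the naïve libraries (2.32, SE 0.52, adjusted p = 0.0654, and 0.00221 in DESeq2), and passed without IM24h library 1 (0.0299) or 3 (0.0337). *Nfe2l2* was at 38.0, 94.4, 59.0 and 102 CPM, overlapping the naïve libraries (1.15, SE 0.47, adjusted p = 0.291). Non-overlap above naïve was found for 2 members, *Txnrd1* and *Slc7a11*, on the scale of that fit, against 6.97% of all genes. On the CPM scale used here *Slc7a11* overlapped, at 1.38 CPM in its lowest IM24h library and 1.40 CPM in its highest naïve one. The protein-coding *Slc7a11* transcript held 40.7% of the summed *Slc7a11* counts in naïve *RiboTag*, 57.1% at IM3h and 12.65% at IM24h. The rest were assigned to retained-intron transcripts, so the *Slc7a11* level at IM24h is mostly not that of the coding transcript. Glial markers summed to 531 to 719 CPM at IM24h, below every naïve and IM3h library (0 of 4 called by edgeR, 1 at an unadjusted p under 0.05). Smooth muscle markers summed to 712 to 1943 CPM (2 of 4 lower than naïve) and macrophage markers to 116 to 222 CPM (0 of 4 tested called, 0 at an unadjusted p under 0.05). Fibroblast markers, at 141 to 316 CPM after 381 to 470 CPM, lay below naïve (0 of 3 called, 1 at an unadjusted p under 0.05). Those of interstitial cells of Cajal, at 15.8 to 75.5 CPM after 87.3 to 122 CPM, did so too (0 of 2 called, 1 at an unadjusted p under 0.05). The part of these shifts in the results at this time was not tested.

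*Srxn1* in *RiboTag* at IM24h stood at 36.8, 0.817, 1.77 and 32.3 CPM, a group split between libraries near or above the naïve levels and libraries far below them (-0.21, SE 1.05). In the low libraries, numbers 2 and 3, AY036118 took 59.2 and 58.1% of the counts, against 22.2 and 32.9% in libraries 1 and 4, and its part in the split was not tested. *Hmox1* was at 1.51, 11.9, 16.9 and 16.4 CPM, with 3 of 4 libraries above the naïve range (2.08, SE 1.25, adjusted p = 0.536). Set against IM3h in the fit over all *RiboTag* groups, no member passed in edgeR, where 0.184% of 17930 genes were called higher and 0.0669% lower, and *Srxn1* was the only member at an unadjusted p under 0.05 (-5.39, SE 1.19, adjusted p = 0.0550). Every IM24h library lay below every IM3h library for *Srxn1*, *Hmox1* and *Gclc*, against 10.2% of all genes. Without the IM72h libraries in that fit, an alternative chosen after seeing the data, these 3 fell, with adjusted p of 0.00210 for *Srxn1*, 0.0348 for *Hmox1* and 0.0451 for *Gclc*. The fraction by treatment term passed for no member at IM24h, with 0.277% of all genes larger and 0.260% smaller in *RiboTag*, and only *Hmox1* had an unadjusted p under 0.05 (-2.39, SE 0.93, adjusted p = 0.257). Without IM24h *RiboTag* library 1 the term passed for *Gclm* (adjusted p = 0.0464).

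At IM72h in *ME*, *Hmox1*, *Slc7a11* and *Srxn1* were called above naïve levels and *Nqo1*, *Gclm* and *Txnrd1* below, a split that moved with the scaling. Of 16592 genes tested, 29.3% were called higher and 28.3% lower, and all libraries lay above naïve for 30.0% and below for 28.7%, so the counts of 3 and 3 members are near the background. *Hmox1* stood at 18.6, 20.7, 41.9 and 18.4 CPM (3.74, SE 0.40, 13.3-fold), *Slc7a11* at 4.54, 1.88, 1.81 and 2.47 CPM (2.79, SE 0.63, 6.90-fold) and *Srxn1* at 59.8, 79.0, 81.1 and 62.3 CPM (0.99, SE 0.15, 1.99-fold). All these libraries lay above the naïve ones. *Gclm* was at 17.2, 19.9, 17.8 and 21.6 CPM (-0.57, SE 0.13) and *Txnrd1* at 23.7, 20.3, 21.7 and 29.0 CPM (-0.59, SE 0.15), all below naïve, but scaling by library totals alone turned these values to 0.029 and 0.023. *Nqo1* was at 3.53, 3.01, 3.47 and 4.42 CPM (-1.14, SE 0.24, adjusted p = 0.00203). The *Nqo1* call was lost with library totals alone (adjusted p = 0.0858) and the *Srxn1* call with the 3-gene scaling (0.112). Library totals alone called 5 members higher and 0 lower, and the 3-gene scaling 2 higher and 7 lower. *Gclc* was called in opposite directions by these scalings (0.70, adjusted p = 0.00523, and -0.53, adjusted p = 0.0163), as was *Nfe2l2* (0.42, adjusted p = 0.0226, and -0.80, adjusted p = 0.000335). With TMM scaling *Gclc*, *Nfe2l2*, *Gsr* and *Osgin1* did not pass, and macrophage markers summed to 673 to 910 CPM (5 of 5 higher than naïve), the highest of the *ME* groups. Neutrophil markers summed to 35.0 to 66.4 CPM (4 of 4 higher), endothelial markers to 49.6 to 64.1 CPM after 25.8 to 26.8 CPM (3 of 3 higher) and fibroblast markers to 2612 to 3039 CPM (1 of 3 higher). Smooth muscle markers summed to 10091 to 16942 CPM (2 of 4 lower) and those of interstitial cells of Cajal to 77.1 to 92.2 CPM (2 of 2 lower). Mesothelial markers summed to 27.6 to 74.2 CPM after 96.2 to 117 CPM, and epithelial markers to 170 to 304 CPM after 43.3 to 145 CPM. All these sums lay apart from the naïve ones, and their part in the results was not tested.

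From IM24h to IM72h, 7 members fell in *ME* (21.0% of 17919 genes were called higher and 21.9% lower). *Txnrd1* fell by 1.93 on the log2 scale (SE 0.19), *Slc7a11* by 1.86 (SE 0.51), *Gclc* by 1.45 (SE 0.23), *Nfe2l2* by 1.30 (SE 0.14), *Gclm* by 1.06 (SE 0.15), *Gsr* by 0.87 (SE 0.29) and *Hmox1* by 0.68 (SE 0.25), the last lost in 6 of 13 alternative settings. *Hmox1* was lost without IM24h library 2 or 3 or IM72h library 1, 2 or 4 (adjusted p = 0.0723 to 0.108), and *Gsr* without IM24h library 2 or 3 or IM72h library 4 (0.0557 to 0.0754). *Srxn1* had a value of 0.32 (SE 0.13, adjusted p = 0.0542) and was called higher without IM24h library 3 or IM72h library 1 or 4 (0.0255 to 0.0455).

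In *RiboTag* at IM72h no member of the 8 tested by edgeR or DESeq2 passed, none had an unadjusted p under 0.05 in edgeR, and log2 fold changes ran from -1.69 for *Gclc* (SE 1.60) to 0.70 for *Nfe2l2* (SE 0.83), where 1.05% of 13572 genes were called higher and 15.1% lower. *Hmox1* was read at 0, 1.32, 0 and 15.4 CPM, *Srxn1* at 0, 11.4, 0 and 46.8 CPM and *Txnrd1* at 73.7, 26.4, 0 and 11.7 CPM. *Osgin1* had 0 counts in all 4 libraries. At this time glial markers summed to 141 to 1124 CPM (1 of 4 lower than naïve), macrophage markers to 219 to 392 CPM (1 of 4 tested higher) and smooth muscle markers to 1530 to 5667 CPM (1 of 4 lower). Mesothelial markers, at 0 to 8.56 CPM after 66.6 to 180 CPM, lay below naïve. Those of interstitial cells of Cajal did so too, at 0 to 70.4 CPM after 87.3 to 122 CPM. The part of these shifts was not tested. Calls came for *Gclm* when IM72h library 3 was left out (adjusted p = 0.0397) and for *Gsr*, then at 0 counts, without library 2 (0.0190). The step from IM24h likewise gave no call (0.402% of genes higher and 3.11% lower), with *Gclc* and *Txnrd1* at an unadjusted p under 0.05, and the fraction by treatment term at IM72h gave none, also at an unadjusted p under 0.05, where 2.12% of genes were larger and 21.1% smaller in *RiboTag*. Leaving out an IM72h library brought calls in the step for *Txnrd1* (library 1, adjusted p = 0.0466), *Gclc* (library 2, 0.00997), *Gsr* (library 2, 0.0278) and *Hmox1* (library 4, 0.0475). It brought calls in the fraction term for *Gclc* (library 2, 0.0113), *Gsr* (library 2, 0.000498), *Gclm* (library 3, 0.000715), *Slc7a11* (library 3, 0.0162) and *Hmox1* (library 4, 0.00169). All of these calls were toward lower *RiboTag* values at IM72h. The IM72h libraries then left held at most 3 counts of *Hmox1*, 1 of *Gclm* or *Slc7a11* and 0 of *Gsr*. There 3 counts are worth 1.32 to 2.88 CPM, a limit that overlaps the naïve *RiboTag* levels of *Hmox1* (2.41 to 3.39 CPM) and *Slc7a11* (0.711 to 1.40 CPM).

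Partners and repressors of Nrf2 also changed at IM3h. Of 10 regulators, 5 rose and none fell in *RiboTag* at IM3h, and 7 rose and 1 fell in *ME*, where the shares of all genes called were 8.86% and 4.44% in *RiboTag* and 19.3% and 13.4% in *ME*. *Maff*, a small Maf partner, stood at 4.45, 1.81 and 2.49 CPM in naïve *RiboTag* and at 33.2, 50.2, 60.0 and 32.6 CPM at IM3h (3.98, SE 0.44, adjusted p = 0.000208). In *ME* it ran from 4.35, 2.37 and 5.81 CPM to 118, 164 and 133 CPM (5.02, SE 0.24). The groups were separate in both fractions, and the other small Maf genes, *Mafk* (2.42 in *RiboTag* and 2.90 in *ME*) and *Mafg* (1.53 and 1.57), rose as well.

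*Bach1*, the heme-sensitive repressor that competes for the same elements, stood at 9.91, 14.1 and 22.6 CPM in naïve *RiboTag* and at 216, 191, 216 and 170 CPM at IM3h (3.73, SE 0.32, adjusted p = 4.36e-05). In *ME* it went from 19.6, 20.9 and 14.6 CPM to 97.9, 140 and 108 CPM (2.71). *Keap1* was the regulator that fell in *ME*, from 77.0, 76.0 and 68.3 CPM to 53.0, 53.6 and 45.4 CPM (-0.49, SE 0.12, adjusted p = 0.0114). In *RiboTag* *Keap1* was at 72.4, 90.6 and 72.2 CPM and then at 58.6, 39.1, 26.3 and 56.3 CPM, with no overlap but no call (-0.74, adjusted p = 0.124). In a fit over all 4 *RiboTag* groups *Maff*, *Bach1*, *Mafk* and *Mafg* were no longer called, and *Mafg* was lost in 8 of 15 alternative settings. None of the 10 regulators passed in edgeR for a difference of the IM3h change between the fractions, with 1 at an unadjusted p under 0.05.

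At IM24h in *ME*, *Maff* (2.06, SE 0.36), *Bach1* (1.47, SE 0.25) and *Mafg* (0.89) were above naïve mice and no regulator was called lower, beside 15.6% of all genes higher and 13.4% lower. *Mafg* was lost without naïve library 1 (adjusted p = 0.106) or 2 (0.0849) and with the 3-gene scaling (0.42, adjusted p = 0.205). At IM72h *Bach1* (1.17, SE 0.16) and *Sqstm1* (0.36, SE 0.11) were higher, and *Cul3* (-0.76, SE 0.10), *Nfe2l1* (-0.72, SE 0.13) and *Keap1* (-0.32) lower, so that 2 and 3 of 10 regulators stood beside 29.3% and 28.3% of all genes, near the background. All 3 lower calls were lost with library totals alone, which brought *Cul3* to -0.16 (adjusted p = 0.366) and *Nfe2l1* to -0.11 (0.550) and turned *Keap1* to 0.29, and *Keap1* was also lost without any 1 naïve library or without IM72h library 2 or 3 (0.0528 to 0.141). *Sqstm1* turned to -0.25 with the 3-gene scaling and was lost without naïve library 2 or 3 (0.0541 and 0.0539). In *RiboTag* no regulator passed at IM24h in edgeR (3 at an unadjusted p under 0.05, and *Bach1* passed in DESeq2, adjusted p = 0.0145), and at IM72h *Maff* was called lower with 0 counts in all 4 libraries, where 3 counts are worth 1.32 to 2.88 CPM, a limit that overlaps the naïve levels.

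**Figure D3:**
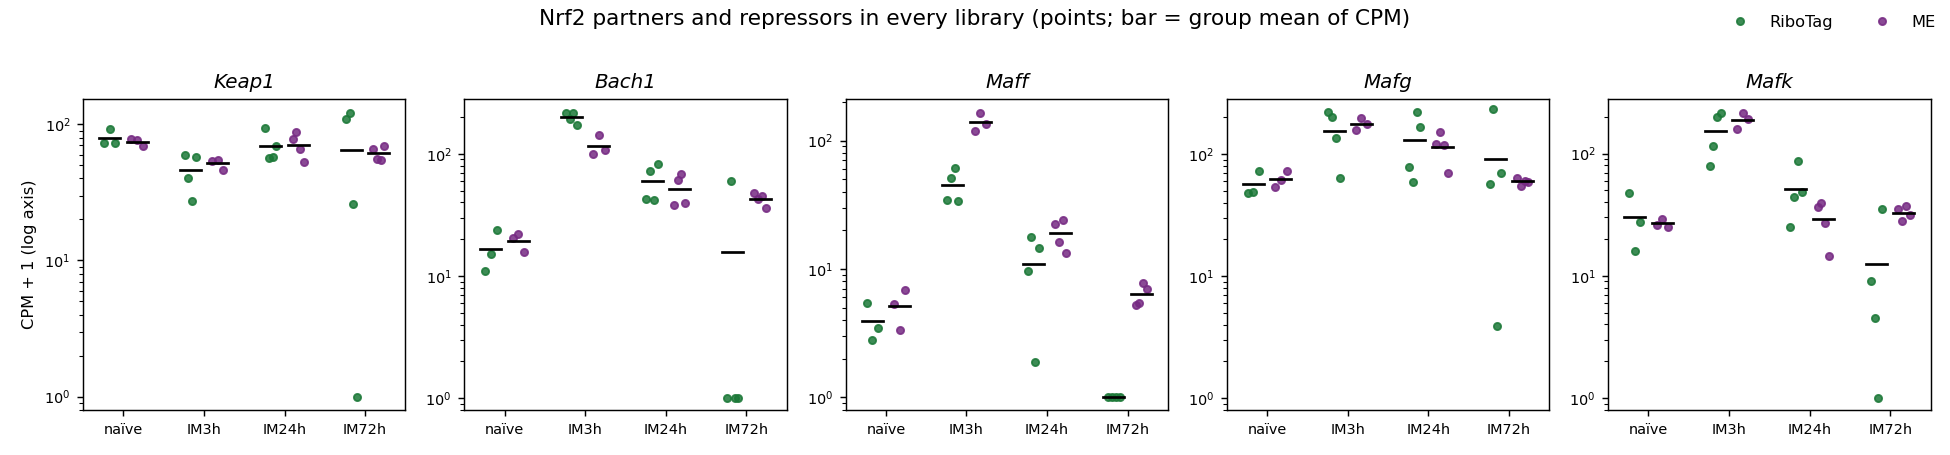
Levels of *Keap1*, *Bach1*, *Maff*, *Mafg* and *Mafk* in every library, as CPM plus 1 on a log axis, by group, with *RiboTag* in green, *ME* in purple and bars for group means. *Bach1* stands at 170 to 216 CPM in all 4 *RiboTag* libraries at IM3h and at 97.9 to 140 CPM in *ME*, while *Keap1* lies below its naïve libraries in both fractions at that time.

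Of 48 tested genes in 6 lists of wider antioxidant pathways, 2 rose and 5 fell in *RiboTag* at IM3h, beside 8.86% of all genes called higher and 4.44% lower. No gene passed in edgeR among 5 thioredoxin and peroxiredoxin genes and 6 genes of NADPH supply, with 1 and 2 at an unadjusted p under 0.05, and of 9 tested genes of glutathione supply and use only *Gsta4*, a glutathione transferase, changed (-1.18, SE 0.33). Of 7 tested genes for detoxification and export *Ugdh*, which makes UDP-glucuronic acid, rose (1.55, SE 0.29). Among 9 tested heme and iron genes *Tfrc*, the transferrin receptor, rose (2.60, SE 0.40), while *Slc48a1*, a heme carrier (-1.40, SE 0.30), and *Fth1*, ferritin heavy chain (-1.52, SE 0.43), fell. Reads of *Fth1* can be shared with its many near-identical pseudogenes. Of 12 other antioxidant enzymes *Gpx3* (-1.45, SE 0.31) and *Prdx2* (-1.12, SE 0.25) fell and none rose. A fit over all 4 groups called none of these genes, and *Gsta4* and *Fth1* lost their calls in 10 and 8 of 15 alternative settings. *Fth1* moved to -0.73 without naïve library 2 (adjusted p = 0.276). *Gpx3* was not called without naïve library 1 (0.0504), nor *Prdx2* without naïve library 2 (0.0669). With the 3-gene scaling *Prdx2* (0.100), *Ugdh* (0.143), *Tfrc* (0.0581) and *Slc48a1* (0.0795) were not called either.

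In *ME* at IM3h, 10 of 49 tested genes of these lists rose and 4 fell, or 20.4% and 8.16%, beside 19.3% and 13.4% of all genes, so the share of rises was near the background. *Slc3a2*, the heavy chain that partners *Slc7a11* (1.62, SE 0.13), and *Chac1*, which degrades glutathione (1.61, SE 0.55), rose among the 10 glutathione genes and none fell. *Txn1* (0.47, SE 0.14) and *Prdx1* (0.35, SE 0.11), both with near-identical copies, rose among the 5 thioredoxin genes. *Idh1* fell (-0.57, SE 0.18) and none of the 6 NADPH genes rose. *Ugdh* (1.65, SE 0.19) and *Abcc1* (0.48, SE 0.13) rose and *Ephx1* fell (-0.45, SE 0.14) among the 7 detoxification genes tested. Of the 9 heme and iron genes tested 3 rose, among them *Tfrc* (1.90, SE 0.15) and *Ftl1* (0.98, SE 0.10), and *Slc48a1* fell (-0.57, SE 0.11). *Sod2*, the mitochondrial superoxide dismutase, rose (1.24, SE 0.12) and *Cat*, catalase, fell (-0.57, SE 0.13) among the 12 other enzymes. The calls of *Chac1*, *Prdx1*, *Ephx1*, *Txn1* and *Abcc1* were lost in 11, 10, 8, 7 and 6 of 13 alternative settings, and *Prdx1* turned to -0.059 with the 3-gene scaling. *Idh1* was lost without naïve library 1 or 2 or IM3h library 2 or 3 (adjusted p = 0.0673 to 0.0915).

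Genes with the pattern most like that of the leading members were sought over the 6 log2 fold changes from naïve mice among 12315 genes tested in every comparison, by Euclidean distance, as a description. Nearest to *Hmox1* were *Junb* (distance 1.61), *Tnfrsf12a* (2.34) and *Hmga1* (2.74), and nearest to *Srxn1* were *Vasn* (1.07), *Phlda1* (1.85) and *Nr4a1* (2.23). All 3 comparisons of a fraction share the same naïve libraries. *Junb* had log2 fold changes of 4.70 in *RiboTag* and 4.71 in *ME* at IM3h, beside 4.54 and 5.55 for *Hmox1*.

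Within *Txnrd1* the estimated counts moved between annotated transcripts in *RiboTag*. A protein-coding transcript from 82859179 to 82897712 of chr10, the most abundant in naïve mice, held 81.5 to 87.6% of the *Txnrd1* counts of naïve *RiboTag* libraries and 59.9, 59.9, 37.4 and 26.5% at IM3h. A protein-coding transcript that ends upstream of it, from 82859207 to 82896605, held at most 0.003% in naïve *RiboTag* and 9.70, 10.9, 38.6 and 43.8% at IM3h. At IM24h it held 32.2, 85.4, 30.4 and 61.1%, and at IM72h 100% in the 3 libraries with any *Txnrd1* count. In *ME* the first of these transcripts held 86.4 to 91.7% at IM3h and the second was at 0% in naïve, IM3h and IM72h libraries, with 17.1% in the highest library at IM24h. The transcripts of the fractions were estimated in separate tables from reads near the 3′ end, and no test was made of these shares. Other annotated *Txnrd1* transcripts, of which one shares the end of the first and another ends beside it, are not included in either share. Nor is a retained-intron transcript, which held 8.22% of the summed *Txnrd1* counts in naïve *RiboTag*, 17.9% at IM3h and 22.2% at IM24h. In *ME* it held 3.54, 4.07 and 10.9% in these groups, so the counts did not move between coding transcripts alone.

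**Figure D4:**
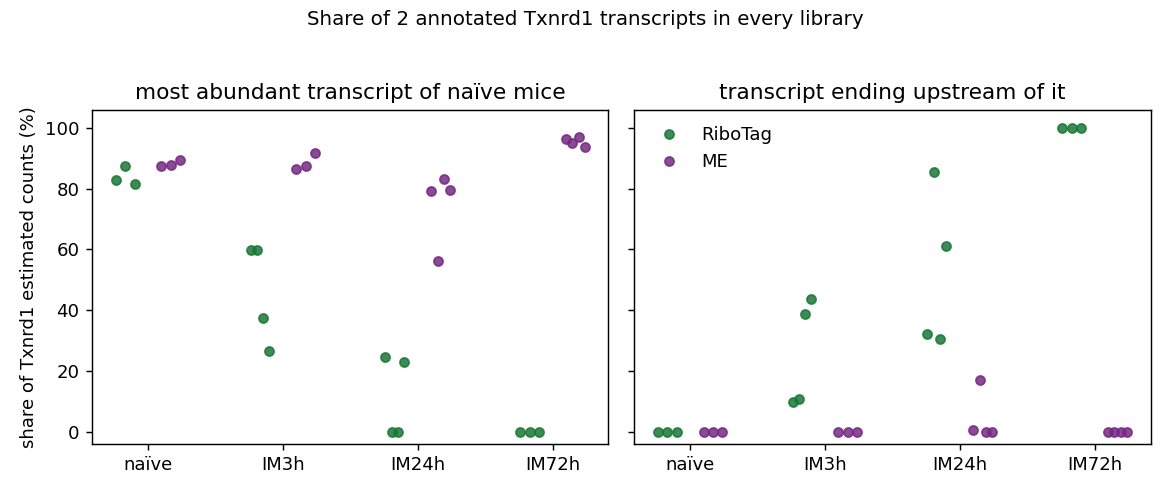
Share of *Txnrd1* estimated counts (percent, y axis) assigned to the most abundant transcript of naïve mice (left) and to a transcript that ends upstream of it (right) in every library, by group, with *RiboTag* in green and *ME* in purple. *RiboTag* points of the latter lie at 9.70 to 43.8% at IM3h and at 30.4 to 85.4% at IM24h, while *ME* points lie at or near 0% but for 17.1% in an IM24h library.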

How the data were processed

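RNA of the *ME* and *RiboTag* fractions was sequenced with a 3′ tag kit, and reads were trimmed (cutadapt), aligned to mm10 (STAR) and quantified to Ensembl transcripts in Partek Flow by the authors. The deposited values are estimated counts per transcript or gene in 5 tables, unnormalised. *RiboTag* transcripts were summed to genes, and all values were rounded to whole counts. Library names in the tables match no sample label, so libraries were grouped by the treatment column of the tables and numbered in name order. The labels list 4 naïve *RiboTag* samples and the tables hold 3. Each comparison with naïve mice was fitted on its own groups with edgeR 4.0.16 (R 4.3.3, TMM, filterByExpr, quasi-likelihood F test, Benjamini-Hochberg over all genes tested), steps in time over all groups of a fraction, and fractions with an interaction term. A gene was called at an adjusted p under 0.05. The 10 members and the gene lists were chosen with earlier results of these data known. Besides the members, *Keap1* and *Bach1* were named in each comparison, with up to 2 genes per list and direction with the largest called changes; *Mafk* and *Mafg* were added after their values were seen. A further marker gene is not reported here. Scripts were tested on simulated counts. Alternatives changed scaling, filter, tool (DESeq2 1.42.0), fitted groups and single libraries. AY036118 stayed in library totals.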

Additional observations from a re-analysis of the deposited data

Results flagged for a closer look

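A library far from the other 3 of its group was found in 8 of the 50 gene groups checked by Dixon's criterion. Its rate of about 1 in 20 by chance is for normally spread values. It does not hold where the other libraries are at or near 0, as for *Osgin1*, *Gsr* and *Nqo1* below, so no excess over chance is read from the count. In *ME* at IM72h, *Hmox1* was at 41.9 CPM in library 3 and at 18.4 to 20.7 CPM in the others. The other 7 were *RiboTag* groups at the later, shallower times. At IM24h *Slc7a11* was at 33.7 CPM in library 3 (others 1.38 to 3.82) and *Osgin1* at 1.64 CPM in library 1 (others 0). At IM72h *Slc7a11* was at 25.9 CPM (others 0 to 0.616) and *Gclm* at 26.9 CPM (others 0 to 0.440), both in library 3. Also at IM72h *Gsr* was at 27.7 CPM in library 2 (others 0), *Hmox1* at 15.4 CPM in library 4 (others 0 to 1.32) and *Nqo1* at 5.23 CPM in library 1 (others 0). All 63 *Gsr* counts at IM72h were assigned to a processed transcript, not annotated as protein-coding, with 0 counts in the other *RiboTag* groups. The protein-coding *Slc7a11* transcript held 12.65% of the summed *RiboTag* counts of the gene at IM24h and 3.45% at IM72h. At these times edgeR called no member in *RiboTag* against naïve mice, DESeq2 called *Txnrd1* at IM24h, and the *Hmox1* call in *ME* at IM72h was kept with each library left out.

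*Srxn1* was the member with a tested difference between fractions, its IM3h rise being larger in *RiboTag* than in *ME* by 2.51 on the log2 scale.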

How the results depend on the processing

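Of 41 calls of a member in a comparison, 20 were kept in every alternative run for them. *RiboTag* IM3h fell from 5 calls to 3 when libraries were scaled by *Actb*, *Hsp90ab1* and *Rplp1* and to 0 in a fit over all 4 groups. *RiboTag* IM24h had 1 call in place of 0 without the filter on low counts, with DESeq2, and in a fit over naïve, IM3h and IM24h. The 3-gene scaling left 4 of 7 calls in *ME* IM24h, gave 1 in *RiboTag* IM24h against IM3h and 0 of 1 in the fraction test at IM3h. *RiboTag* IM24h against IM3h had 1 without the filter and 3 with the IM72h libraries left out. Library totals alone gave 1 in *RiboTag* IM72h against IM24h, 2 higher and 2 lower in place of 7 lower in *ME* IM24h against IM3h, 1 and 3 in the fraction tests at IM24h and IM72h and 1 in naïve *RiboTag* against *ME*. In *ME* IM72h, 3 higher and 3 lower became 5 and 0 with library totals alone and 2 and 7 with the 3-gene scaling. In *ME* IM24h, 6 and 1 became 8 and 0, and 4 and 0. The 3 alternatives that regrouped fits without IM72h were chosen after seeing the data.

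With each library left out in turn, calls ran from 4 to 5 (*RiboTag* IM3h), 0 to 1 (IM24h), 0 to 1 (IM72h), 0 to 0 (IM24h against IM3h) and 0 to 2 (IM72h against IM24h). In *ME* they ran from 7 to 8, 6 to 8 and 6 to 6 at IM3h, IM24h and IM72h, 5 to 8 from IM3h to IM24h and 5 to 7 from IM24h to IM72h. The fraction tests gave 1 to 1, 0 to 1 and 0 to 2, and naïve fractions 0 to 1.

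Direction turned for *Gclm* (0.029), *Txnrd1* (0.023) and *Nfe2l2* (0.42) in *ME* IM72h and for *Gclm* (0.32) and *Nfe2l2* (0.11) in *ME* IM24h against IM3h with library totals alone, which moved the median of all genes by 0.60 and 0.84. *Gclc* in *ME* IM72h turned to -0.53 with the 3-gene scaling. Without library 2, the only *RiboTag* library at IM72h with a *Gsr* count, *Gsr* turned to -7.91 there and to -8.77 in the fraction test at IM72h, fitted values against 0 counts (ranges to 0.60 and 0.67 over the libraries left out). Among list genes, 26 of 72 calls were kept throughout. With the 3-gene scaling *Prdx1* turned to -0.059 in *ME* IM3h and *Sqstm1* (-0.25), *Txn1* (-0.057), *Glrx* (-0.064) and *Taldo1* (-0.068) in *ME* IM72h. With library totals alone *Keap1* turned to 0.56 in *ME* IM24h and 0.29 in *ME* IM72h, and *Mafg* to 0.50 in *ME* IM72h. The causes were not tested. No paired analysis was possible because the names in the count tables carry no replicate number. The paper's method keeps an input control from the lysate used for the pulldown. *ME* and *RiboTag* libraries at IM24h and IM72h may therefore share animals, and the fraction by treatment tests treated them as independent. The value of 3 counts was highest in *RiboTag* at IM72h, at 1.32 to 2.88 CPM.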

Other observations

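In *ME* at IM24h, 12 of 48 tested genes of the 6 wider lists rose and 10 fell, or 25.0% and 20.8%, beside 15.6% of all genes called higher and 13.4% lower. Of 6 genes of NADPH supply 2 rose and 1 fell, and 3 of 5 thioredoxin and peroxiredoxin genes rose. *Taldo1*, transaldolase of the pentose phosphate pathway (2.13, SE 0.26), *Idh1* (0.73, SE 0.16), *Txn1* (1.19, SE 0.20) and *Glrx*, glutaredoxin (0.86, SE 0.26), rose, and *Me1*, malic enzyme, fell (-1.14, SE 0.24). Of 9 tested genes of glutathione supply and use 3 fell, among them the transferases *Gsta4* (-2.39, SE 0.64) and *Gsta3* (-2.09, SE 0.59), and none rose. The largest called changes among the other antioxidant enzymes were rises of *Sod2* (1.72, SE 0.36) and *Gpx1* (1.12, SE 0.21) and falls of *Gpx3* (-1.71, SE 0.19) and *Sod1* (-0.89, SE 0.16). *Glrx*, *Gsta4*, *Gsta3* and *Idh1* were not called without naïve library 3, nor *Gsta4* and *Gsta3* without naïve library 1, *Gsta3* without IM24h library 1, *Gsta4* without IM24h library 3, or *Glrx* without naïve library 2 or IM24h library 2 or 3. *Txn1*, *Glrx*, *Idh1*, *Gpx1* and *Gsta4* were not called with the 3-gene scaling, and *Me1*, *Sod1* and *Gsta3* not with library totals alone.

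At IM72h in *ME*, 13 of 48 tested genes of the 6 wider lists were higher and 12 lower, or 27.1% and 25.0%, near the 29.3% and 28.3% of all genes. Among them *Cbr1*, a carbonyl reductase (1.60, SE 0.20), *Idh1* (1.55, SE 0.17) and *Ftl1*, ferritin light chain (1.93, SE 0.12), were higher, and *Gsta3* (-2.34, SE 0.30) and *Mgst1* (-1.87, SE 0.27) lower. *Fth1* was lower by far (-3.93, SE 0.53), and reads of *Fth1* and *Ftl1* can be shared with near-identical copies. In *RiboTag* at IM24h *Gstm1*, a glutathione transferase, fell (-3.53, SE 0.57) and was the only called gene of its list, a call lost in 8 of 15 alternative settings. Cre line and time cannot be told apart for these *ME* values.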
